A study of Mus musculus with 6 samples.

Results

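The 42 genes described here encode the machinery of macroautophagy and its cargo receptors. They were chosen by name for their known roles, with earlier results of these data known, as the rows of the expression table whose gene symbol matches a list of initiation, nucleation, membrane, conjugation, receptor and fusion factors. All 42 are among the 15824 genes of the table, with 1 row each. RNA sequencing was done on cells labelled as alveolar macrophages, which live in the airspaces and take up particles and microbes there. Flow cytometry was used to sort them out of lungs taken from mice at 8 weeks of age, and there were 3 libraries of Men1 knockout mice (KO) and 3 of wild-type mice (WT). Men1 encodes menin, a scaffold of MLL histone methyltransferase complexes, and the comparison asks which genes differ without it in these cells. The sources used here do not give the allele, any Cre driver, the sexes or whether animals were pooled.

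In autophagy a cell encloses cytoplasm, organelles or microbes in a double membrane and delivers them to the lysosome. The ULK kinase complex starts the process, the VPS34 lipid kinase complex marks the forming membrane, ATG9 and ATG2 supply lipid, and ubiquitin-like conjugation attaches ATG8 proteins (the LC3 and GABARAP proteins) to the membrane, where they bind cargo receptors. Macrophages also use much of the conjugation machinery to attach LC3 to phagosomes that have taken up microbes or dead cells.

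Total counts per library lay between 19955242 and 20151990, of which the 42 genes took 0.383% to 0.388%. Men1 counts were 150, 149 and 165 in the KO libraries and 639, 594 and 603 in the WT libraries (replicates 1, 2 and 3, the order used for all per-library values). Its log2 fold change of KO over WT was -1.93 (SE 0.0684, adjusted p = 7.24e-24 by edgeR). Libraries of the same group differed far less than libraries of different groups, with a chi-square per gene of 1.38 to 1.61 against 62.1 to 65.2. Nothing in the labels ties the replicates to different animals, so the p-values speak only of the spread between these samples, and that spread may be technical. Of 4 Y-linked genes, no KO library had more than 2 counts and no WT library fewer than 283. Genotype therefore cannot be told apart from Y-linked transcription, or from sex, for any of the 42 genes, on autosomes as well. Atg4a is the only member on the X chromosome. The 9 fibroblast markers summed to 10.7 to 11.6 CPM (counts scaled to library size) in KO and 83.2 to 85.2 CPM in WT, and all 9 fell. The 9 interstitial macrophage markers summed to 1730 to 1767 CPM in KO and 899 to 913 CPM in WT, and 6 of the 8 tested rose. Of the 12 alveolar macrophage markers 10 are in the table, with Fabp1 and Plet1 under 1 CPM in all libraries and Siglecf, a surface lectin of alveolar macrophages, at 1.34 ± 0.154 CPM in KO and 2.06 ± 0.381 CPM in WT (SD, n = 3). Their summed level was 1286 to 1328 CPM in KO and 396 to 411 CPM in WT, most of it from Marco in KO. Of the 8 tested 3 rose and 4 fell (Siglecf, Atp6v0d2, Pparg and Itgax), with a median log2 fold change of -0.089. Siglecf, Fabp1 and Plet1 at these low levels do not bear out the cell name of the labels in either group. Other markers of the list were expressed in both, with Atp6v0d2 at 60.8 CPM in KO and 119 CPM in WT. Itgax stood at 43.8 CPM in KO and 53.0 CPM in WT, and Fabp4 at 31.5 and 29.4 CPM. Pparg stood at 13.1 CPM in KO and 19.0 CPM in WT, Chil3 at 13.9 and 6.94 CPM, and Trim29 at 1.63 and 0.425 CPM. Marco, also on the list, stood at 1137 CPM in KO and 172 CPM in WT. Of 4 tested neutrophil markers 3 rose (S100a8, S100a9 and Ngp) and Mmp8 fell to 558 CPM in KO, against 800.0 CPM in WT. The list's sum of 622.6 to 643.7 CPM in KO and 831.3 to 848.4 CPM in WT follows Mmp8. The part of these marker shifts in the results below was not tested, and in bulk RNA fewer cells of a type and less RNA per cell cannot be told apart.

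Autophagy genes changed little in size but in many cases beyond the spread between libraries. Genes of initiation and membrane supply were mostly higher in KO, led by Ulk1 and Atg9a, and Rubcn of the nucleation genes rose most of all. Of the conjugation enzymes 6 of 11 fell, led by Atg12. Of the 42 genes, all of which passed the low-count filter, 28 (66.7%) passed an adjusted p of 0.05 in edgeR's quasi-likelihood test, against 69.2% of the 11817 genes tested. Of these, 18 rose (42.9%, against 34.4% of all genes tested) and 10 fell (23.8%, against 34.9%). The groups differed by 25% or more (higher over lower) for 11 that rose (26.2%, against 18.0%) and 3 that fell (7.14%, against 18.5%), and only Rubcn, Ulk1 and Atg9a of the 42 reached 1.5-fold. The KO and WT libraries did not overlap in CPM for 27 of the 42 (64.3%, against 71.2%).

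The median log2 fold change of the 42 genes was 0.08, beside 0.0014 for all genes tested, and their median absolute value was 0.14, beside 0.24. On the TPM scale (transcript abundance as a share, corrected for length), where the median of all genes shifted to -0.12, limma on log2(TPM + 1) called 13 of the 42 higher and 16 lower. Of all genes called there 29.9% were higher, against 44.8% of those called among the 42. On the count scale these shares were 49.6% and 64.3%, so the balance of directions depends on the scale for all genes as for the 42. Relative to the median of all genes, the median of the 42 was 0.076 higher on the count scale and 0.074 higher on the TPM scale. The biological coefficient of variation that edgeR estimated over all genes, which is the spread beyond counting noise, was 1.66%. When it was set to 0.1, 11 of the 42 were higher and 3 lower, namely those that differed by 25% or more. All adjusted p-values below are from the edgeR quasi-likelihood fit, adjusted over the 11817 genes by the Benjamini-Hochberg method, unless another tool is named. Counts per step or list below stand beside the 34.4% of all genes tested that rose and the 34.9% that fell.

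**Figure D1:**
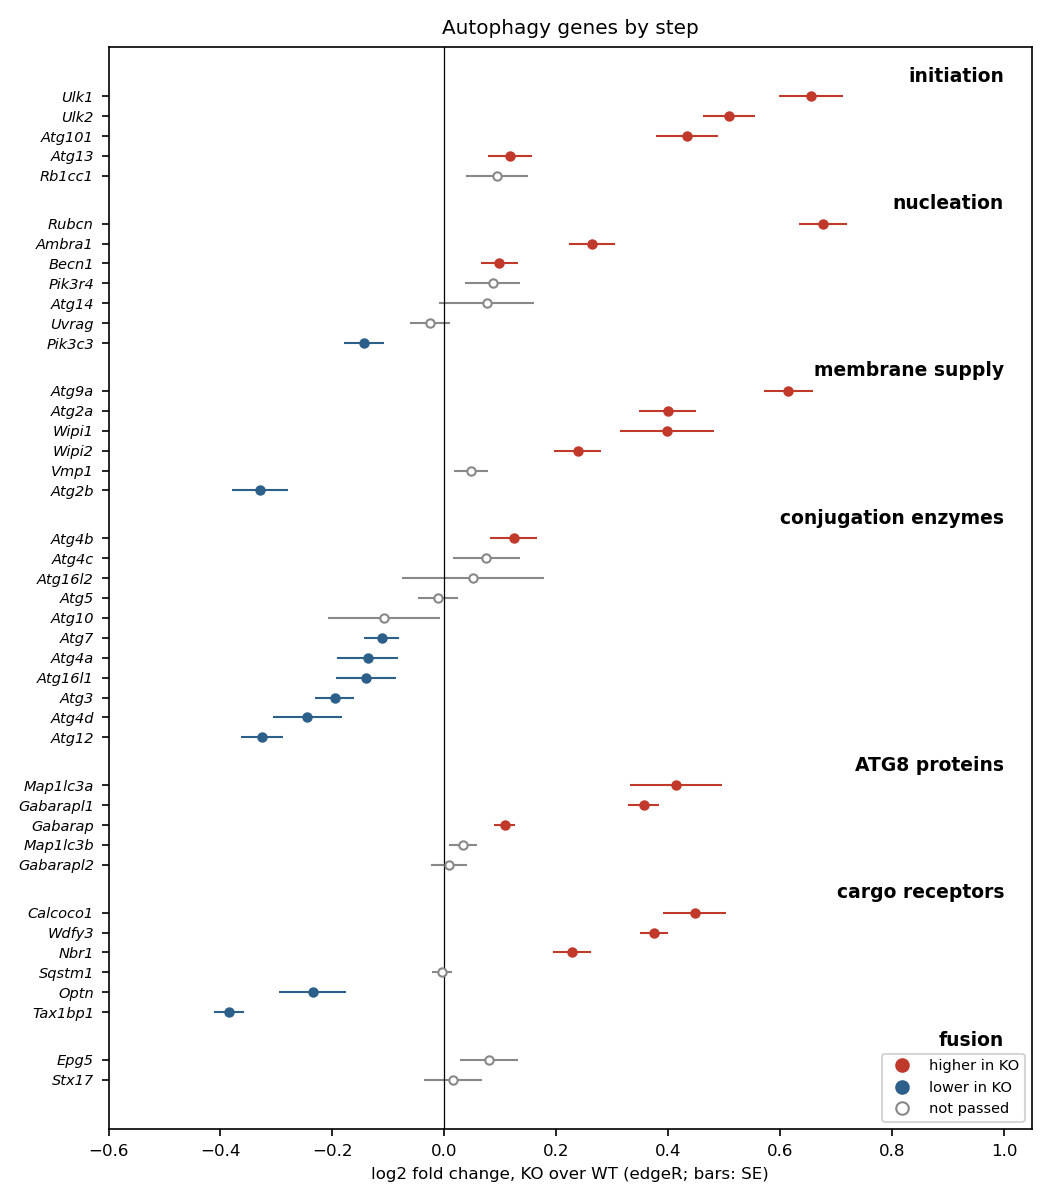
Log2 fold change of KO over WT (x axis) for each of the 42 autophagy genes, grouped by step from initiation to fusion; points are edgeR estimates from 3 KO and 3 WT libraries, bars are standard errors, and open points did not pass an adjusted p of 0.05. Initiation genes lie at 0.09 to 0.66, all to the right of 0, whereas conjugation enzymes run from -0.33 to 0.12.

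Of the 5 initiation genes, 4 rose and Rb1cc1 did not pass, with a median log2 fold change of 0.43, beside 0.0014 for all genes tested. On the TPM scale their median was 0.284, beside -0.12 for all genes. Ulk1 (chromosome 5, 110784489 to 110810120 in GRCm38.p6), which encodes a kinase that triggers autophagosome formation, measured 27.9, 26.9 and 29.4 CPM in the KO libraries, against 18.1, 17.5 and 17.9 CPM in the WT libraries. Every KO library lay above every WT library, and the rise was 1.58-fold (log2 fold change 0.66, SE 0.0567, adjusted p = 1.31e-12). Its relative Ulk2, which encodes a kinase that can act in its place, measured 54.5, 48.5 and 54.5 CPM in the KO libraries, against 37.9, 37.6 and 35.2 CPM in the WT libraries (log2 fold change 0.51, SE 0.0463, adjusted p = 4.85e-12). Both kinase genes were therefore higher without overlap, and per length Ulk2 was the more abundant, at 12.5 ± 0.826 TPM in KO and 9.69 ± 0.434 TPM in WT, against 7.64 ± 0.309 and 5.29 ± 0.141 TPM for Ulk1 (SD, n = 3).

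The other subunits of the kinase complex moved less. Atg101, whose product stabilises ATG13, measured 32.2, 29.7 and 31.1 CPM in the KO libraries, against 23.6, 21.1 and 24.2 CPM in the WT libraries (log2 fold change 0.43, SE 0.055, adjusted p = 1.18e-08). This 1.35-fold rise also left no overlap between the groups. Atg13, the adaptor of the complex, measured 52.0, 53.4 and 54.7 CPM in the KO libraries, against 50.2, 48.5 and 48.8 CPM in the WT libraries and rose 1.09-fold on the count scale (log2 fold change 0.12, SE 0.0391, adjusted p = 0.0079). DESeq2 gave an adjusted p of 0.0531 and limma on the TPM scale a value of -0.023 (adjusted p = 0.575). Rb1cc1, which encodes the large scaffold FIP200, measured 28.0, 24.6 and 26.1 CPM in the KO libraries, against 25.4, 24.4 and 23.9 CPM in the WT libraries (log2 fold change 0.094, SE 0.0553, adjusted p = 0.13). Its groups overlapped, and it would pass without KO replicate 2 (0.14, adjusted p = 0.0381).

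Of the 7 nucleation genes, 3 rose, 1 fell and 3 did not pass, with a median of 0.09. On the TPM scale their median was -0.042, beside -0.12 for all genes. Rubcn (chromosome 16, 32821702 to 32877729 in GRCm38.p6) had the largest fold change of the 42 genes. It encodes Rubicon, which restrains autophagosome maturation at the VPS34 complex and is required for LC3-associated phagocytosis. Its level was 52.8, 53.5 and 53.1 CPM in the KO libraries, against 34.4, 32.1 and 33.3 CPM in the WT libraries, a 1.60-fold rise (log2 fold change 0.68, SE 0.0422, adjusted p = 1.6e-16). The KO libraries lay within 1 CPM of one another and far above the WT libraries. Ambra1, which encodes an activator of the ULK and beclin complexes, measured 50.6, 53.1 and 50.5 CPM in the KO libraries, against 44.2, 41.6 and 42.7 CPM in the WT libraries (log2 fold change 0.26, SE 0.041, adjusted p = 7.03e-07).

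The core of the VPS34 complex did not follow Rubcn. Becn1, encoding the scaffold beclin 1, measured 96.4, 96.5 and 104 CPM in the KO libraries, against 91.9, 94.5 and 90.8 CPM in the WT libraries (log2 fold change 0.10, SE 0.0327, adjusted p = 0.00822). This small rise was lost without KO replicate 3 (0.064, adjusted p = 0.109) and stood at -0.042 on the TPM scale. In the annotation 43.9% of its exon bases overlap Cntd1 on the opposite strand, so reads of the 2 genes could not be told apart unless strand was used in counting. Pik3r4, the regulatory kinase subunit VPS15, measured 32.1, 33.0 and 36.2 CPM in the KO libraries, against 31.3, 32.2 and 31.9 CPM in the WT libraries (log2 fold change 0.086, SE 0.0492, adjusted p = 0.118), and passed without KO replicate 1 (0.12, adjusted p = 0.0435). Atg14, which directs the complex to autophagy sites, measured 12.2, 13.4 and 12.8 CPM in the KO libraries, against 11.0, 11.3 and 14.2 CPM in the WT libraries (log2 fold change 0.075, SE 0.0843, adjusted p = 0.434). Its highest value of all was in WT replicate 3, without which it passed (0.21, adjusted p = 0.0344). Uvrag, the subunit that takes the place of ATG14 in the endosomal complex, measured 64.4, 61.7 and 63.7 CPM in the KO libraries, against 64.1, 62.5 and 66.5 CPM in the WT libraries (log2 fold change -0.026, SE 0.0366, adjusted p = 0.546). The groups overlapped for each of these 3 subunits, and 17.6% of the exon bases of Uvrag overlap the antisense transcript Gm45187.

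Pik3c3, which encodes the lipid kinase VPS34 itself, gave opposite directions in the deposited units. In counts it fell, at 64.5, 64.5 and 61.9 CPM in the KO libraries, against 71.8, 70.7 and 68.3 CPM in the WT libraries (log2 fold change -0.14, SE 0.0357, adjusted p = 0.000625). In TPM it was higher in KO, at 24.1, 24.3 and 23.3 TPM in the KO libraries, against 22.2, 23.0 and 20.6 TPM in the WT libraries. Limma on log2(TPM + 1) put it at 0.12 (adjusted p = 0.0419) and on log2(FPKM + 1) at 0.19 (adjusted p = 0.00386). Between these units stands the effective gene length that the authors' values imply (count divided by FPKM and by library total). It was 3483, 3480 and 3465 bases in the KO libraries and 4633, 4420 and 4735 bases in the WT libraries. The difference of -0.40 in log2 length was the lowest of all 8793 genes with at least 100 counts and 2 FPKM in each library, of which 114 passed 0.1 in either direction. Among the 41 members so measured no other passed 0.1, and the next furthest were Atg7 at 0.06, Epg5 at 0.06 and Atg4d at -0.05. The transcripts of Pik3c3 in GENCODE M21 are 2998 to 3257 bases long, and the sources used here do not give the annotation the authors counted on. Pik3c3 was singled out after its values were seen, and no test was made of the length difference.

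**Figure D2:**
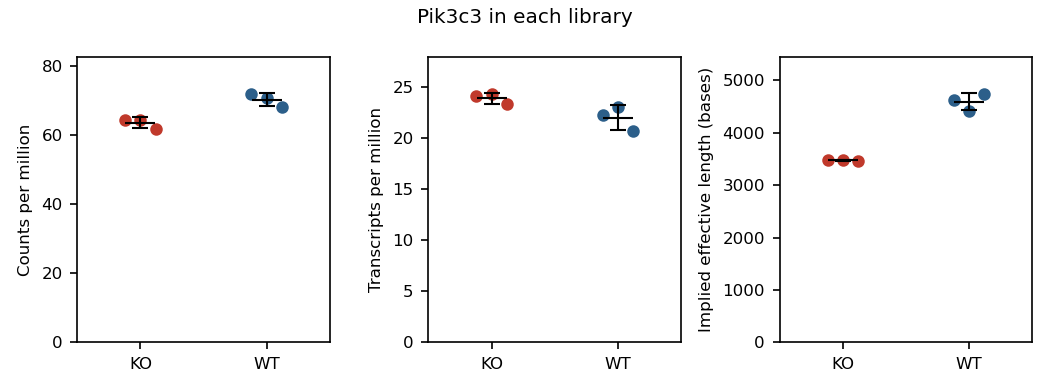
Pik3c3 in each of 3 KO and 3 WT libraries as CPM, as TPM and as the effective length in bases implied by the deposited counts and FPKM; points are libraries, horizontal bars the mean and whiskers the SD. Counts are lower in KO, TPM higher in KO, and the implied length lies between 3465 and 3483 bases in KO and between 4420 and 4735 bases in WT.

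Of the 6 membrane supply genes, 4 rose, 1 fell and Vmp1 did not pass, with a median of 0.32. On the TPM scale their median was 0.162, beside -0.12 for all genes. Atg9a (chromosome 1, 75180861 to 75192010 in GRCm38.p6), which encodes the scramblase of the vesicles that seed the membrane, measured 48.3, 48.4 and 47.6 CPM in the KO libraries, against 32.0, 29.6 and 32.6 CPM in the WT libraries, a 1.53-fold rise (log2 fold change 0.61, SE 0.0445, adjusted p = 1.11e-14). No KO value came near a WT value, although 31.8% of its annotated exon bases are shared on the same strand with the transcript Gm29253, so reads may be split between them. Atg2a and Atg2b, which encode the lipid transfer proteins that feed the growing membrane, went in opposite directions. Atg2a measured 33.3, 32.1 and 36.0 CPM in the KO libraries, against 24.7, 25.9 and 26.3 CPM in the WT libraries (log2 fold change 0.40, SE 0.0516, adjusted p = 1.85e-08). Atg2b measured 27.4, 25.4 and 27.4 CPM in the KO libraries, against 34.2, 32.5 and 34.0 CPM in the WT libraries (log2 fold change -0.33, SE 0.0497, adjusted p = 3.9e-07). Neither gene's groups overlapped, and the share of Atg2a in their summed TPM was 61.1% ± 1.61 in KO and 48.6% ± 1.63 in WT (SD, n = 3).

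The WIPI genes encode readers of the lipid made by VPS34. Wipi1 measured 11.5, 11.1 and 11.1 CPM in the KO libraries, against 8.88, 7.91 and 8.83 CPM in the WT libraries (log2 fold change 0.40, SE 0.0838, adjusted p = 7.96e-05). Wipi2 rose by 0.24 in log2 and was the more abundant per length, at 18.8 TPM in KO and 17.6 TPM in WT. On the TPM scale the value of Wipi2 was 0.09 and did not pass (adjusted p = 0.111). Vmp1, encoding a scramblase of the endoplasmic reticulum, measured 126, 132 and 134 CPM in the KO libraries, against 128, 130.1 and 121 CPM in the WT libraries (log2 fold change 0.047, SE 0.0307, adjusted p = 0.172). It passed without KO replicate 1 (0.076, adjusted p = 0.0416), and stood at -0.093 on the TPM scale (limma adjusted p = 0.0469).

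Of the 11 conjugation enzyme genes, 6 fell, Atg4b rose and 4 did not pass, with a median of -0.11 on the count scale. On the TPM scale their median was -0.26, beside -0.12 for all genes, which put it at -0.142 relative to all genes. The summed level of the 11 was 437 to 440.4 CPM in KO and 470.3 to 483 CPM in WT. Atg12, which encodes the ubiquitin-like protein joined to ATG5, measured 54.9, 54.4 and 55.8 CPM in the KO libraries, against 71.2, 65.6 and 70.1 CPM in the WT libraries (log2 fold change -0.33, SE 0.0379, adjusted p = 1.8e-09). Atg3, the conjugating enzyme that hands ATG8 proteins to the lipid, measured 75.7, 76.5 and 75.9 CPM in the KO libraries, against 87.4, 90.8 and 83.1 CPM in the WT libraries (log2 fold change -0.20, SE 0.0343, adjusted p = 5.38e-06). For both genes the highest KO library lay below the lowest WT library.

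The partners of ATG12 fell by less or did not pass. Atg16l1, which encodes the protein that brings the ATG12 and ATG5 conjugate to the membrane, measured 33.4, 28.1 and 29.2 CPM in the KO libraries, against 33.4, 34.4 and 32.3 CPM in the WT libraries (log2 fold change -0.14, SE 0.0534, adjusted p = 0.0198). Here KO replicate 1 lay among the WT libraries, so the groups overlapped. The fall was -0.22 (adjusted p = 0.000831) without that library. It was lost without KO replicate 2 (-0.089, adjusted p = 0.178), KO replicate 3 (-0.11, adjusted p = 0.106) or WT replicate 2 (-0.12, adjusted p = 0.083) and with DESeq2 (adjusted p = 0.0847). Atg5, which encodes the partner of ATG12 in the conjugate, measured 67.6, 72.4 and 69.7 CPM in the KO libraries, against 72.7, 69.6 and 69.1 CPM in the WT libraries (log2 fold change -0.012, SE 0.0358, adjusted p = 0.789; 2 SE either side, -0.083 to 0.060). The relative Atg16l2 measured 5.28, 5.01 and 5.25 CPM in the KO libraries, against 4.56, 4.23 and 6.19 CPM in the WT libraries (log2 fold change 0.051, SE 0.127, adjusted p = 0.736). Atg10, the conjugating enzyme for ATG12, measured 6.90, 7.15 and 7.90 CPM in the KO libraries, against 6.97, 8.60 and 8.09 CPM in the WT libraries (log2 fold change -0.11, SE 0.0997, adjusted p = 0.339). These 3 genes overlapped between groups, and Atg10 and Atg16l2 were the least abundant of the 11 genes per length, at 7.49 and 2.99 TPM in KO and 8.93 and 3.29 TPM in WT. Atg7, the activating enzyme of both conjugation reactions, fell to 86.6 ± 1.05 CPM in KO, against 93.6 ± 2.37 CPM in WT (SD, n = 3; log2 fold change -0.11, SE 0.0316, adjusted p = 0.00213).

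The 4 ATG4 proteases prime ATG8 proteins and remove them from membranes, and their genes divided. Atg4d fell, at 16.9, 16.7 and 17.0 CPM in the KO libraries, against 21.0, 19.9 and 19.0 CPM in the WT libraries (log2 fold change -0.24, SE 0.062, adjusted p = 0.000728), though 19.3% of its exon bases overlap Kri1 on the opposite strand. Atg4b, the main protease for LC3, rose by 0.12 in log2 without overlap between groups, but stood at -0.015 on the TPM scale (limma adjusted p = 0.731). Its call was also lost with DESeq2 (adjusted p = 0.0613), with total counts (edgeR adjusted p = 0.156) and on log2(FPKM + 1) (limma adjusted p = 0.16). Atg4a lies on the X chromosome, and genotype and sex cannot be told apart there or on the autosomes. Atg4a also has an annotated copy, Atg4a-ps, that could share reads. It fell by 0.14 in log2, a call lost without KO replicate 1 (-0.12, adjusted p = 0.0839), KO replicate 3 (-0.13, adjusted p = 0.0719) or WT replicate 1 (-0.10, adjusted p = 0.142) and with DESeq2 (adjusted p = 0.119). Atg4c measured 24.8, 22.7 and 22.8 CPM in the KO libraries, against 20.9, 21.7 and 24.1 CPM in the WT libraries (log2 fold change 0.075, SE 0.0599, adjusted p = 0.267). In KO the share of Atg4b in the TPM of the 4 genes was 35.1% ± 0.947, against 31.8% ± 0.357 in WT (SD, n = 3).

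Promoters were searched because MiT/TFE factors, which drive autophagy genes, bind E-boxes. Promoter sequences of RefSeq (build GRCm38.p6, 250 bases before to 50 after the start) were found for 34 of the 42 genes. The letters CACGTG, read the same on both strands, occurred in 5 of these 34 genes (14.7%), against 8.09% of all 27025 genes with a promoter. The promoters of these genes were richer in G and C, with a median of 60.0% against 52.7% over all promoters, and the part of this in the share was not tested. The longer core TCACGTGA of the lysosomal CLEAR element, which contains CACGTG, occurred in 1 of the 34 (2.94%), against 1.12%. That gene was Atg3, whose CACGTG copies begin 94 and 71 bases before the start, the nearer one within TCACGTGA. Atg5, Atg7, Rubcn and Atg14 hold 1 copy each, in Atg7 and Rubcn at an annotated start inside the gene and in Atg14 across the start itself. Of these 5 genes Atg3 and Atg7 fell, Rubcn rose, and Atg5 and Atg14 did not pass. The sequences show what these promoters share, with CACGTG in capitals and the strand of the gene. A match is a description of the letters and not a site of binding.
Atg3 (plus strand, chr16:45158579-45158828): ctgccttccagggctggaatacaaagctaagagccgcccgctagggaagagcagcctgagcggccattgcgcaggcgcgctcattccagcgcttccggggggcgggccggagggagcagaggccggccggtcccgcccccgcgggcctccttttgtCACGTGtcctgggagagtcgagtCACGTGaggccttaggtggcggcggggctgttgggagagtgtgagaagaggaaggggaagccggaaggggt
Atg7 (plus strand, chr6:114670937-114670996): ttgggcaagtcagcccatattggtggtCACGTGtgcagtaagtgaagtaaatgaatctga
Atg5 (plus strand, chr10:44268298-44268338): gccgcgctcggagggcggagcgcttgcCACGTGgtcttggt
Atg14 (minus strand, chr14:47568430-47568462): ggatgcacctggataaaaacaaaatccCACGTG
Rubcn (minus strand, chr16:32868422-32868481): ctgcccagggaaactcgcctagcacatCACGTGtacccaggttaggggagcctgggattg

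The 5 ATG8 genes encode the proteins attached to the membrane, and 3 rose while 2 did not pass. Gabarapl1 measured 138, 138 and 137 CPM in the KO libraries, against 108, 108 and 106 CPM in the WT libraries, a 1.28-fold rise (log2 fold change 0.36, SE 0.0276, adjusted p = 6.54e-14), with KO libraries within 1 CPM of one another. Of its exon bases 28.3% overlap the transcript 1700101I11Rik on the opposite strand. Map1lc3a, encoding LC3A, measured 12.2, 12.1 and 11.7 CPM in the KO libraries, against 8.93, 9.73 and 8.34 CPM in the WT libraries (log2 fold change 0.41, SE 0.0824, adjusted p = 3.78e-05). Its rise left no overlap between groups although its level per length was the lowest of the family, at 21.9 TPM in KO and 18.2 TPM in WT.

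Gabarap measured 611, 622 and 616 CPM in the KO libraries, against 562, 578 and 576 CPM in the WT libraries and rose 1.08-fold on the count scale (log2 fold change 0.11, SE 0.0192, adjusted p = 7.22e-06), but stood at -0.035 on the TPM scale (limma adjusted p = 0.0898). It made up most of the family per length, with 70.9% ± 0.133 of the summed ATG8 TPM in KO and 71.3% ± 0.24 in WT (SD, n = 3). Map1lc3b, encoding LC3B, the form most used as a marker of autophagosomes, measured 179.7, 179 and 176 CPM in the KO libraries, against 173, 172 and 178 CPM in the WT libraries (log2 fold change 0.034, SE 0.0251, adjusted p = 0.23; 2 SE either side, -0.016 to 0.084). Gabarapl2 measured 79.3, 81.5 and 79.5 CPM in the KO libraries, against 78.9, 81.2 and 78.8 CPM in the WT libraries (log2 fold change 0.0080, SE 0.0326, adjusted p = 0.84; 2 SE either side, -0.057 to 0.073). Both overlapped between the groups on the count scale, and on the TPM scale limma called both lower, at -0.11 for Map1lc3b (adjusted p = 0.00239) and -0.14 for Gabarapl2 (adjusted p = 0.000436), close to the median of all genes there.

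**Figure D3:**
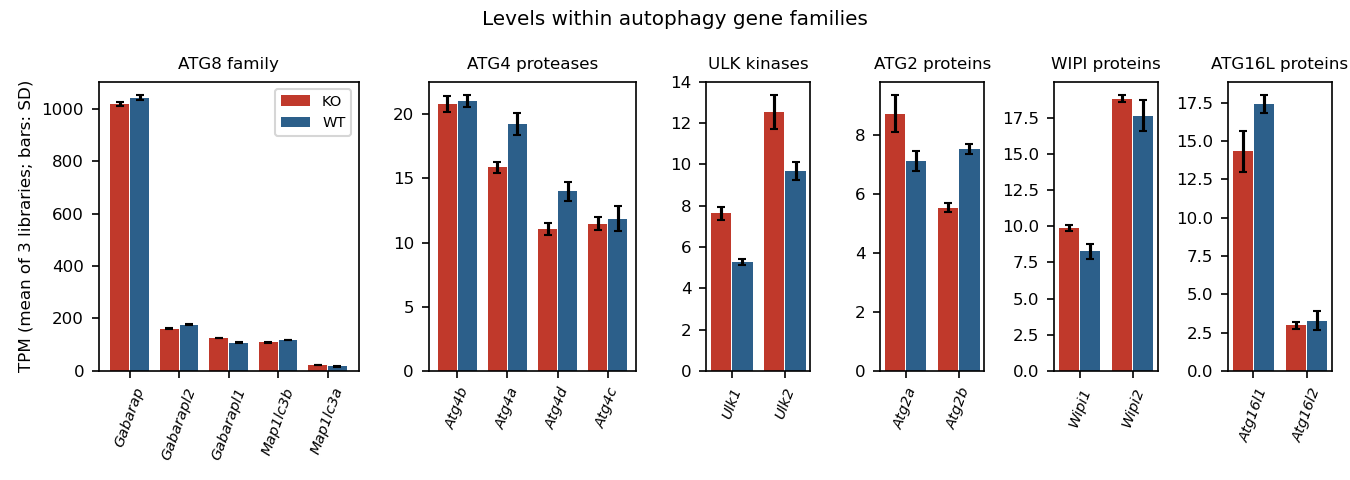
Levels in TPM within 6 families of related autophagy genes, as the mean of 3 KO libraries (left bar of each pair) and 3 WT libraries (right bar), with SD whiskers and separate axes per family starting at 0. Gabarap exceeds the other ATG8 genes several times over, and Atg2a exceeds Atg2b in KO while the pair is near equal in WT.

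Of the 6 cargo receptor genes, 3 rose, 2 fell and Sqstm1 did not pass, where 34.4% of all genes tested rose and 34.9% fell. Sqstm1, encoding the ubiquitin receptor p62, came next to Gabarap in level per length, at 817 TPM in KO and 901 TPM in WT. Its counts were 1052, 1058 and 1044 CPM in the KO libraries, against 1063, 1037 and 1064 CPM in the WT libraries (log2 fold change -0.0046, SE 0.0175, adjusted p = 0.826; 2 SE either side, -0.04 to 0.03). The groups overlapped, 17.3% of its exon bases overlap Mrnip on the opposite strand, and limma on the TPM scale gave -0.14 (adjusted p = 0.000119), close to the median of all genes there. Tax1bp1 (chromosome 6, 52713692 to 52766780 in GRCm38.p6), another ubiquitin receptor, had the strongest fall of the 42 genes, measuring 169, 156 and 166 CPM in the KO libraries, against 217, 216 and 209 CPM in the WT libraries (log2 fold change -0.38, SE 0.0273, adjusted p = 5.91e-15). Optn, a receptor for damaged mitochondria and bacteria, measured 18.1, 17.1 and 18.0 CPM in the KO libraries, against 20.8, 20.5 and 21.4 CPM in the WT libraries (log2 fold change -0.24, SE 0.0597, adjusted p = 0.00075). Both fell with no overlap between the groups.

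Calcoco1, a receptor for the endoplasmic reticulum, measured 25.2, 27.7 and 26.1 CPM in the KO libraries, against 19.0, 19.6 and 19.3 CPM in the WT libraries (log2 fold change 0.45, SE 0.0564, adjusted p = 1.04e-08). Wdfy3 (chromosome 5, 101832953 to 102072215 in GRCm38.p6), which encodes ALFY, a large scaffold for the clearance of protein aggregates, measured 199, 196 and 194 CPM in the KO libraries, against 153, 151 and 150.2 CPM in the WT libraries (log2 fold change 0.38, SE 0.0251, adjusted p = 1.19e-15). In both cases every KO library exceeded every WT library. Nbr1, a ubiquitin receptor related to p62, rose to 86.9 ± 2.86 CPM in KO, against 74.2 ± 0.76 CPM in WT (SD, n = 3; log2 fold change 0.23, SE 0.0334, adjusted p = 2.22e-07), though on the TPM scale it stood at 0.077 and did not pass (limma adjusted p = 0.0777).

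Neither fusion gene passed. Epg5, which encodes a tether between autophagosomes and lysosomes, measured 31.4, 29.7 and 28.9 CPM in the KO libraries, against 28.5, 26.6 and 30.1 CPM in the WT libraries (log2 fold change 0.080, SE 0.0525, adjusted p = 0.175). Stx17, the autophagosomal SNARE, measured 28.0, 26.4 and 26.6 CPM in the KO libraries, against 26.8, 27.4 and 25.8 CPM in the WT libraries (log2 fold change 0.016, SE 0.0516, adjusted p = 0.8). The groups overlapped for both, and on the TPM scale both stood below 0, at -0.099 and -0.11, close to the median of all genes there.

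**Figure D4:**
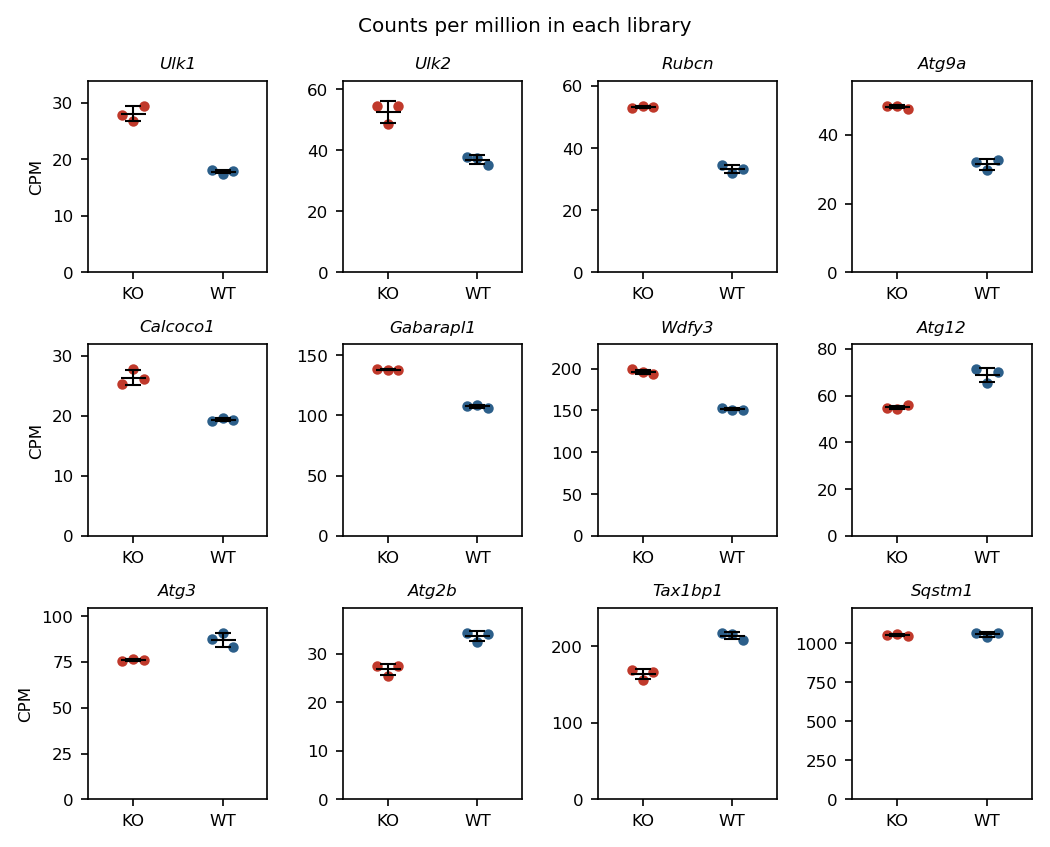
CPM of 12 autophagy genes in each of 3 KO libraries (left) and 3 WT libraries (right), with the mean (horizontal bar) and SD (whiskers); each axis starts at 0. KO points lie above WT points for Ulk1, Ulk2, Rubcn, Atg9a, Calcoco1, Gabarapl1 and Wdfy3, below them for Atg12, Atg3, Atg2b and Tax1bp1, and among them for Sqstm1.

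Genes that act around these steps were taken from further lists chosen for their role. Of 63 tested, 19 rose (30.2%, against 34.4% of all genes tested) and 20 fell (31.7%, against 34.9%). The genes for transcriptional regulators of autophagy and lysosome genes rose in 5 of 7 cases, with none lower and a median log2 fold change of 0.172 on the count scale and 0.029 on the TPM scale. Foxo3 measured 53.6 ± 0.612 CPM in KO and 39.1 ± 1.55 CPM in WT (log2 fold change 0.46, SE 0.0413, adjusted p = 4.2e-12). Foxo1 measured 12.1 ± 0.653 CPM in KO and 8.87 ± 0.446 CPM in WT (log2 fold change 0.45, SE 0.0823, adjusted p = 1.1e-05). The MiT/TFE genes Tfeb, Tfe3 and Mitf were all higher on the count scale, with Tfeb at 33.6 ± 1.36 CPM in KO and 27.4 ± 0.628 CPM in WT (log2 fold change 0.29, SE 0.049, adjusted p = 2.47e-06). Tfe3 stood at 162 ± 4.08 CPM in KO and 144 ± 1.45 CPM in WT (log2 fold change 0.17, SE 0.0267, adjusted p = 6.77e-07). Tfe3 is on the X chromosome, and genotype and sex cannot be told apart there or on the autosomes. On the TPM scale Tfe3 did not pass (0.029, limma adjusted p = 0.343), and Mitf stood at 17.7 TPM in KO and 17.6 TPM in WT.

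Among 12 genes for the fusion of autophagosomes with lysosomes, 3 rose and 5 fell. Vamp8, the lysosomal SNARE, measured 186 ± 4.05 CPM in KO and 131 ± 2.58 CPM in WT (log2 fold change 0.51, SE 0.0268, adjusted p = 1.06e-18). Ykt6, another SNARE of this fusion, measured 177 ± 2.61 CPM in KO and 210.4 ± 0.763 CPM in WT (log2 fold change -0.25, SE 0.0243, adjusted p = 2.36e-11). The adaptor gene Plekhm1 rose by 0.19 in log2, but did not pass on the TPM scale (0.046, limma adjusted p = 0.173), and the Rab7 regulator gene Tbc1d15 fell by 0.25. Of 11 other core and accessory genes, 2 rose and 4 fell. Tecpr1, which encodes a tether that binds the ATG12 and ATG5 conjugate, measured 83.6 ± 2.79 CPM in KO and 132 ± 5.48 CPM in WT (log2 fold change -0.66, SE 0.0327, adjusted p = 1.93e-19). Wdr45, a WIPI relative on the X chromosome, measured 12.8 ± 1.05 CPM in KO and 8.36 ± 0.828 CPM in WT (log2 fold change 0.62, SE 0.0874, adjusted p = 1.13e-07). The membrane genes Sh3glb1 and Tmem41b fell by 0.26 and 0.25 in log2.

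Of 17 tested genes for other cargo receptors and mitophagy, 4 rose and 5 fell, and Calcoco2 was under 1 CPM in all libraries. Ccpg1, a receptor for the endoplasmic reticulum, measured 58.7 ± 2.86 CPM in KO and 40.3 ± 1.6 CPM in WT (log2 fold change 0.55, SE 0.0428, adjusted p = 9.8e-14). Retreg1, another such receptor, measured 50.1 ± 1.91 CPM in KO and 61.0 ± 0.755 CPM in WT (log2 fold change -0.28, SE 0.0386, adjusted p = 5.31e-08). Tollip, a ubiquitin-binding adaptor, measured 102 ± 1.51 CPM in KO and 134 ± 3.03 CPM in WT (log2 fold change -0.40, SE 0.0289, adjusted p = 1.09e-14). The mitochondrial receptor gene Fkbp8 rose by 0.21 in log2, but did not pass on the TPM scale (0.071, limma adjusted p = 0.0542). Of 16 genes of mTORC1 and AMPK control, which restrain and promote autophagy in turn, 5 rose and 6 fell. The AMPK subunit genes Prkag2 and Prkag1 rose by 0.33 and 0.13 in log2, although Prkag1 stood at -0.010 on the TPM scale. The AMPK subunit genes Prkaa2, Prkab2 and Prkab1 fell by 0.39, 0.33 and 0.155, and Prkaa1 did not pass. Prkaa2 was low, at 2.48 ± 0.567 CPM in KO and 3.25 ± 0.55 CPM in WT, and its groups overlapped (SE 0.169, adjusted p = 0.0403). The mTORC1 inhibitor genes Tsc1 and Deptor fell by 0.20 and 0.31, whereas Akt1s1 rose by 0.10, and Tsc2 and Tbc1d7 did not pass. Of the rest of the list, Mtor and Mlst8 rose by 0.13 and 0.17, Rheb fell by 0.096, and Rptor and Stk11 did not pass. In TPM Mtor stood at 7.62 in KO and 7.67 in WT. Values of these further genes are on the count scale unless marked TPM. Limma on the TPM scale called 7 of the 63 higher and 36 lower, beside 2463 higher and 5781 lower of all 11817 genes.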

How the data were processed

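RNA was sequenced from 3 KO and 3 WT libraries. The submitters' processing notes name HISAT, Bowtie2 and GRCm38.p6. The authors deposited estimated counts per gene, of which 8.66% to 9.19% of values per library are not whole, with FPKM and TPM beside them, and a normalised signal and log2 values for a heat map. The sources used here do not give the strand setting. Estimated counts were rounded and tested with edgeR 4.0.16 (TMM scaling, filterByExpr, quasi-likelihood test with group as the only term, Benjamini-Hochberg adjustment, threshold 0.05), which left 11817 of 15824 genes. CPM values use the TMM library sizes. FPKM and TPM, deposited by the authors, were tested with limma 3.58.1 on log2(value + 1), where a fold change of a low gene is understated. DESeq2 1.42.0, limma-voom, other scalings and filters, an assumed spread and each replicate left out were tried as alternatives. In data simulated for KO against WT on 11695 genes, the test called 43 of 50 genes changed 1.25-fold and 47 of 50 changed 1.5-fold. It called 15 of 11495 unchanged genes, and changes under 1.25-fold were not simulated. The changed genes had a count minimum of 50. Most of the 11695 genes were unchanged there, whereas 69.2% of the 11817 genes tested in the real data were called. How often the test is right at such a share, or for genes of fewer counts, was not tested. Library totals between 19955242 and 20151990 limit precision chiefly for genes of few counts. Exon overlaps come from GENCODE M21 and promoters from RefSeq on GRCm38.p6. All 42 genes were named by a rule: values per library were given for the 4 largest changes of each step and for those that did not pass, and further genes by smallest p, up to 4 per list. Mitf, Calcoco2, Akt1s1, Tsc2, Tbc1d7, Prkaa1, Prkaa2, Prkab1, Prkab2, Mtor, Mlst8, Rheb, Rptor and Stk11 were named outside this rule. Genes and lists were chosen with earlier results of these data known. Promoters other than that of Atg3 were shown after values were seen.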

Additional observations from a re-analysis of the deposited data

How the results depend on the processing

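With an assumed coefficient of variation of 0.1, 4406 genes were called, 11 of the 42 autophagy genes higher and 3 lower. Asking for a difference of 25% or more left 4318 genes, 11 higher and 3 lower. With limma on log2(TPM + 1), 16 of the 42 were lower, beside 5781 of all 11817 genes, and the cause was not tested. No other alternative moved these counts by over 1.5 times, and Men1 stayed lower throughout. Of the 28 calls, 14 held under all 18 alternatives that give a value per gene and 19 when the assumed spread was left out. Leaving out a replicate gave 17 to 20 genes higher and 8 to 10 lower. Signs turned mainly for small values, and Pik3c3 passed in both directions, lower in counts and higher in FPKM and TPM. On log2(TPM + 1) they were -0.0232 for Atg13, -0.0325 for Rb1cc1, -0.0422 for Becn1, 0.116 for Pik3c3, -0.0492 for Pik3r4, -0.048 for Atg14, -0.0931 for Vmp1, -0.0151 for Atg4b, -0.0417 for Atg4c, -0.0955 for Atg16l2, -0.105 for Map1lc3b, -0.0351 for Gabarap, -0.135 for Gabarapl2, -0.0993 for Epg5, -0.111 for Stx17 and -0.00959 for Prkag1. On log2(FPKM + 1) they were 0.191 for Pik3c3, -0.0125 for Vmp1, -0.0305 for Atg16l2, -0.0242 for Map1lc3b, -0.054 for Gabarapl2, -0.0299 for Epg5 and -0.0384 for Stx17. On log2(FPKM + 0.1) they were 0.202 for Pik3c3, -0.0127 for Vmp1, -0.0384 for Atg16l2, -0.0245 for Map1lc3b, -0.0544 for Gabarapl2, -0.038 for Epg5 and -0.0454 for Stx17. With total counts they were -0.00993 for Vmp1, -0.00549 for Atg16l2, -0.023 for Map1lc3b, -0.049 for Gabarapl2 and -0.0411 for Stx17. Without the filter the value was 0.00501 for Sqstm1. Ranges with a replicate left out that crossed 0 were Uvrag -0.046 to 0.00134, Atg5 -0.0358 to 0.0141, Atg16l2 -0.055 to 0.239, Gabarapl2 -0.00242 to 0.0225, Sqstm1 -0.0162 to 0.00451, Stx17 -0.00991 to 0.0356. Replicate numbers were not shown to pair the libraries: deviations of same-numbered libraries correlated at 0.106, 0.057 and 0.0804 across genes, each library correlating best with its own number, as a hint from the data. A replicate block called 8321 genes, 18 of the 42 higher and 10 lower, and changed no member's call. Depth limits Atg16l2 and Atg10 most, whose values rest on the fewest counts.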

Other observations

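The authors' deposited table for a heat map lists 6784 genes. It holds 23 of the 42 autophagy genes (54.8%), against 56.1% of the genes tested here. All 23 passed in edgeR's quasi-likelihood test, but the share of all 6784 genes that passed was not counted. The heat map table was made from the same libraries, so these passes are no separate support. The sources used here do not give the rule by which its genes were picked.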
